A study of Mus musculus with 10 samples.

Results

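The HoxD cluster of the mouse was followed through 10 chromatin immunoprecipitation sequencing libraries of embryonic stem (ES) cells, with antibodies against H3K4me3 and H3K27me3. The cluster was taken as chr2:74500001-74610000 of the mm9 build, a stretch of 110 kb with Hoxd13 at the low end and Hoxd1 at the high end, and reads were counted by the midpoint of each interval. It was cut into 55 bins of 2 kb, of 1207623 such bins on the autosomes, numbered here from bin 1 at the Hoxd1 end to bin 55 at the Hoxd13 end. The 9 members are Hoxd1, Hoxd3, Hoxd4, Hoxd8, Hoxd9, Hoxd10, Hoxd11, Hoxd12 and Hoxd13.

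The series addressed chromatin changes that accompany X inactivation, and HoxD is an autosomal locus in the same libraries. XT67E1 cells (strain C3H/Pgk*129) gave 3 H3K4me3 and 3 H3K27me3 libraries: undifferentiated, treated for 4 days with atRA (all-trans retinoic acid), and grown for 10 days into embryoid bodies (EB, cell aggregates that differentiate after LIF is withdrawn). LF2 and E14 cells, both 129/Ola, each gave an undifferentiated and a 10-day EB library for H3K27me3. The undifferentiated cells of all 3 lines grew on gelatin in serum with LIF. Each line stands for itself, and each combination of line, state and antibody was sequenced as 1 library, so the pairs of libraries below have no replicate spread, and their intervals cover counting error only. The labelled cell states were not checked against marker genes, because genes were not placed on mm9.

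Hox genes encode homeodomain transcription factors that pattern the body axis, and each cluster is switched on in the order in which its genes lie. Hoxd1 belongs to the anterior genes, Hoxd3 and Hoxd4 act in the hindbrain and neck vertebrae, Hoxd8 lies in the middle of the cluster, Hoxd9 and Hoxd10 act in the trunk and limb, and Hoxd11, Hoxd12 and Hoxd13 belong to the posterior group that patterns the limb, the digits and the urogenital tract. In ES cells the clusters are silent and covered by H3K27me3, the histone mark written by Polycomb repressive complex 2, while H3K4me3 marks CpG-rich promoters of active and of many poised genes. Retinoic acid is a known inducer of Hox genes, anterior ones first.

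All 9 members were found in the RefSeq gene table of GRCm38.p6, which was used for names and neighbour order only. By gene end from the Hoxd1 side, the order is Hoxd1, Haglr, Gm14424, Hoxd3, Hoxd4, Mir10b, Hoxd3os1, Gm38462, Hoxd8, Hoxd9, Hoxd10, Hoxd11, Hoxd12 and Hoxd13. The list holds 5 genes that are not members, and overlap between genes was not excluded. By start site, Hoxd4 lies nearer to Hoxd1 than Hoxd3 does. Mtx2 is the protein-coding neighbour beyond Hoxd1, and Evx2, another homeobox gene, the one beyond Hoxd13. With no mm9 annotation, single genes were not placed in bins, and the values below are given by position along the cluster.

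The promoters of the members differ widely in CpG content, the sequence feature with which both marks are associated. RefSeq promoter entries (GRCm38.p6, whose numbering is not that of mm9) matched 9 of 9 members, Hoxd11 with 2 entries. The 250 bases before the start site are shown for the members at both ends of the cluster and for Hoxd4, a gene inside it, with each CpG in capitals. All are on the + strand, at chr2:74762730-74762979 for Hoxd1, chr2:74721728-74721977 for Hoxd4 and chr2:74667975-74668224 for Hoxd13 of GRCm38.p6.
Hoxd1: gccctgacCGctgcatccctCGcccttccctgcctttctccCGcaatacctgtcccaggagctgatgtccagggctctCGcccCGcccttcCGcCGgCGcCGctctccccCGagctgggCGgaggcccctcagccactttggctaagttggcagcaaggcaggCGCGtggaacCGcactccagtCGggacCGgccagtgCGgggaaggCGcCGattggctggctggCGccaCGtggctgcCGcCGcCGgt
Hoxd4: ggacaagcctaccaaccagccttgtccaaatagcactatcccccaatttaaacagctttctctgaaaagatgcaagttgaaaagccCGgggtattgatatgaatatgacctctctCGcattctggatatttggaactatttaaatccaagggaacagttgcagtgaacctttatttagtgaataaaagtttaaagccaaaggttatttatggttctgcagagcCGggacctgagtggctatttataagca
Hoxd13: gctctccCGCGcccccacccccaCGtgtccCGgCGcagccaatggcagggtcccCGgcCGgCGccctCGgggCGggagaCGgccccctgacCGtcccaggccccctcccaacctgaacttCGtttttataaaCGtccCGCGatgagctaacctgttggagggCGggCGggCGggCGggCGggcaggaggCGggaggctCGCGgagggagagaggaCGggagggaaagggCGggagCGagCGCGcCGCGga
Hoxd13 has 31 CpG in this stretch and Hoxd1 has 24, whereas Hoxd4 has 3. The median over all 32851 promoters in the table was 6, with quartiles of 2 and 16. Of the others, Hoxd10 has 20, Hoxd9 13, Hoxd3 12, Hoxd12 10 and Hoxd8 6, and the 2 entries of Hoxd11 have 2 and 20. The letters AGGTCA, searched on both strands as the consensus of a nuclear receptor half-site, occur in the 250 bases before Hoxd3, Hoxd4, Hoxd8 and Hoxd10, which is 4 of 10 entries, beside 14.02% of all promoters. A match describes the letters only.

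H3K27me3 covered most of the cluster in every line and state, and was lowest at the Hoxd1 edge and in a few bins inside it. Density is given below as a multiple of the mean over autosomal bins, and RPM means reads per 1000000 autosomal reads. In XT67E1 the window held 2565 reads undifferentiated (320 RPM, 95% Wilson interval 308 to 332), 2983 after atRA (372 RPM, 359 to 386) and 2703 in EB (339.9 RPM, 327 to 353). LF2 gave 1928 reads undifferentiated (442 RPM, 423 to 462) and 1548 in EB (359 RPM, 342 to 378). E14 gave 2540 (576 RPM, 554 to 599) and 3074 (695 RPM, 671 to 720.4). The order from low to high was thus XT67E1 undifferentiated, XT67E1 EB, LF2 EB, XT67E1 atRA, LF2 undifferentiated, E14 undifferentiated and E14 EB. The counting intervals of the neighbours XT67E1 undifferentiated and XT67E1 EB, XT67E1 EB and LF2 EB, and LF2 EB and XT67E1 atRA overlapped.

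As multiples of the autosomal mean these densities were 7.02, 8.17 and 7.46 in XT67E1, 9.70 and 7.89 in LF2, and 12.6 and 15.3 in E14. Among autosomal windows of the same length (21718 in undifferentiated XT67E1), HoxD stood at place 3, 4 and 3 in XT67E1, at place 3 and 5 in LF2, and at place 2 and 1 in E14. The 110 kb beyond Hoxd1 stood at 0.978 to 1.23 times the mean in the 7 libraries and the 110 kb beyond Hoxd13 at 1.71 to 2.73 times.

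H3K4me3 was close to the genome average over the same 110 kb. XT67E1 gave 130 reads undifferentiated (60.3 RPM, 50.8 to 71.6), 165 after atRA (76.6 RPM, 65.8 to 89.2) and 166 in EB (77.0 RPM, 66.1 to 89.6), or 1.32, 1.68 and 1.69 times the autosomal mean. Those values placed the window at 4299, 2580 and 2267 among about the same number of windows. The flanks of equal length lay between 1.03 and 1.36 times the mean, so the cluster was set apart from its surroundings far less by H3K4me3 than by H3K27me3.

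**Figure D1:**
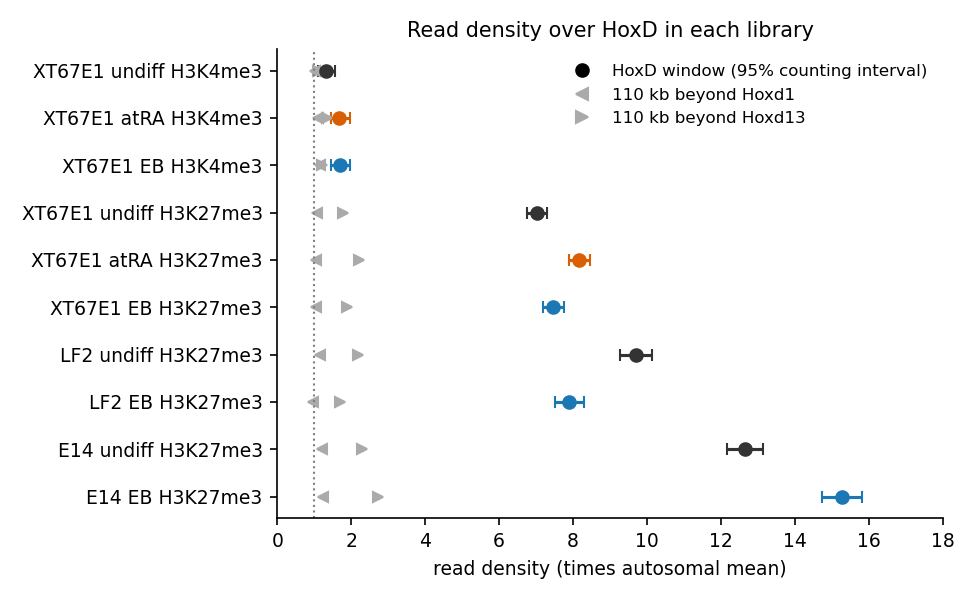
Read density over the 110 kb HoxD window (circles, with 95% counting intervals) and over the 110 kb on each side (triangles) in the 10 libraries, as multiples of the autosomal mean (dotted line). H3K4me3 stays at 1.32 to 1.69 times the mean, and H3K27me3 runs from 7.02 in undifferentiated XT67E1 to 15.3 in E14 embryoid bodies.

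Along the cluster, H3K27me3 formed 2 broad crests with a dip between them. The 10 kb window at the Hoxd1 end (window 1) stood at 4.82, 6.12 and 4.22 times the mean in XT67E1 (undifferentiated, atRA, EB), at 6.42 and 4.65 in LF2 (undifferentiated, EB), and at 8.21 and 8.03 in E14. Window 4, on the first crest, stood at 8.49, 9.91 and 10.1 in XT67E1, 11.3 and 8.24 in LF2, and 14.3 and 17.5 in E14. The dip, window 6 (chr2:74550001-74560000), stood at 5.15, 4.61 and 5.38 in XT67E1, 7.80 and 5.04 in LF2, and 6.84 and 8.80 in E14. Its value was below those of windows 4 and 9 in all 7 libraries.

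The second crest, towards Hoxd13, was the higher one in 6 of the 7 libraries by the highest window on each side of the dip, and XT67E1 EB was the exception. Window 9 (chr2:74520001-74530000) stood at 8.01, 10.7 and 9.38 in XT67E1, 10.96 and 12.5 in LF2, and 19.7 and 22.5 in E14. Window 11, at the Hoxd13 end, still held 7.68 to 16.1 times the mean. The density of the 50 kb nearest Hoxd1, relative to the whole window, was 0.885, 0.895 and 0.900 in XT67E1, 0.909 and 0.843 in LF2, and 0.820 and 0.833 in E14, with upper bounds of 0.862 to 0.958, so in each library the Hoxd1 end carried less H3K27me3 per kb than the cluster as a whole.

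The mark ended differently at the 2 sides. Beyond Hoxd13 the next 10 kb (chr2:74490001-74500000, on the side of Evx2) stood at 7.59, 10.4 and 7.77 times the mean in XT67E1, 10.6 and 7.73 in LF2, and 12.9 and 17.6 in E14, as dense as the cluster itself. The 10 kb after that stood at 3.59 to 5.41, and the third at 0.929 to 1.55. Beyond Hoxd1 the first 10 kb (chr2:74610001-74620000) had already dropped to 1.74 to 2.90 times the mean. The window boundaries were set by coordinates and cut the domain on the Hoxd13 side.

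**Figure D2:**
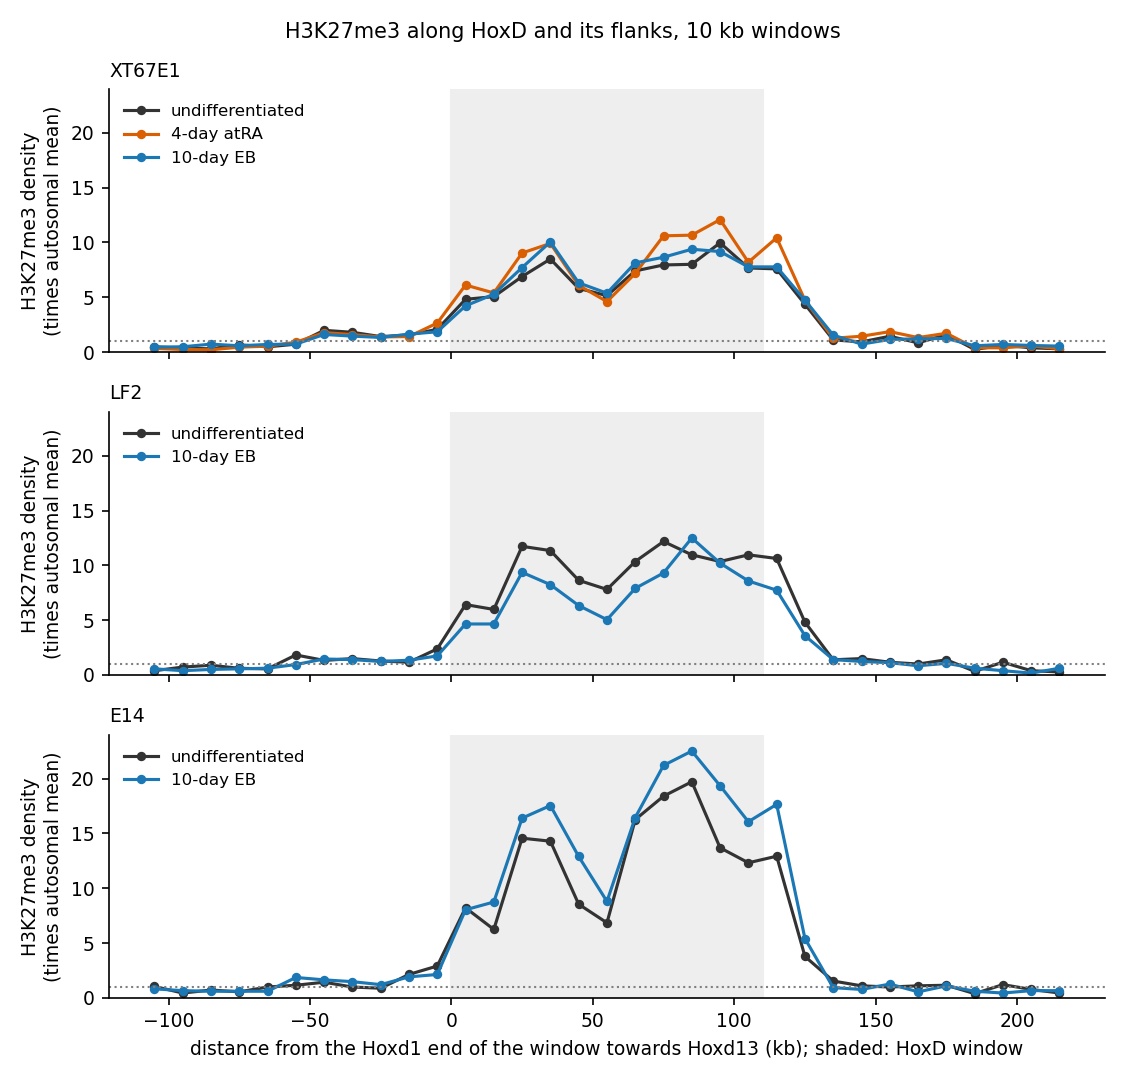
H3K27me3 density in 10 kb windows along HoxD (shaded) and 110 kb on each side, from the Hoxd1 side (left) to the Hoxd13 side (right), as multiples of the autosomal mean, 1 panel per line. Windows 4 and 9 from the Hoxd1 end are higher than window 6 in all 7 libraries, and the mark runs 1 to 2 windows past the Hoxd13 end.

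At 2 kb resolution, 40 of the 55 bins held at least 5 times the mean in all 7 libraries (called marked here), 3 were below that in all 7, and 12 varied. Marked bins numbered 45, 42 and 45 in XT67E1, 47 and 43 in LF2, and 45 and 52 in E14, beside 0.600% to 1.35% of all autosomal bins. No bin fell below the autosomal mean in any of the 7 libraries, and the lowest value was 1.37 times. Bins 1, 2, 7, 8, 27 and 28 were among the 10 lowest in every H3K27me3 library. They lie in 3 places: the Hoxd1 edge, chr2:74594001-74598000, and the dip at chr2:74554001-74558000.

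The level went up and down within the first bins from Hoxd1. Bin 1 held 11, 23 and 15 reads in XT67E1, 18 and 9 in LF2, and 5 and 10 in E14, whereas bin 5 (chr2:74600001-74602000) held 48, 80 and 52, then 50 and 32, then 107 and 74. Bin 5, one of the 4 bins picked out below, exceeded bin 1 in each library, and bins 7 and 8 were again low, at 2.11 to 6.28 times the mean. Across the 55 bins the undifferentiated profile correlated with the later ones at Pearson r = 0.85 (Spearman rho = 0.81) for atRA and 0.85 (0.82) for EB in XT67E1, at 0.60 (0.62) in LF2 and at 0.90 (0.90) in E14. These values describe the bins of single libraries, which are not replicates and share mappability and base composition. They carry no test.

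The bins with most reads differed between lines. In XT67E1 the 5 highest bins spanned a narrow range, 66 to 78 reads undifferentiated (bins 18, 40, 46, 47 and 49), 88 to 91 after atRA and 73 to 78 in EB, and 4 of the 5 lay on the Hoxd13 side of bin 30 in the undifferentiated and atRA libraries, 2 in EB. The highest bin was 1.63, 1.63 and 1.50 times the median bin in XT67E1, and 1.42 in undifferentiated LF2. It was 2.46 in LF2 EB, where bin 45 held 69 reads and the next bin 46, and 2.42 and 1.95 in E14.

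Undifferentiated E14 carried 4 sharp maxima on top of the broad cover. Bins 5, 34, 37 and 45 held 107, 116, 115 and 111 reads there, 29.3 to 31.8 times the mean, while the fifth highest, bin 13, held 86. The 4 bins took 17.7% of the HoxD reads of undifferentiated E14 and 13.0% in E14 EB (74, 88, 119 and 119 reads). In undifferentiated LF2 the same bins held 50, 33, 51 and 27 reads (8.35%) and in LF2 EB 32, 42, 28 and 69 (11.05%). In XT67E1 they held 48, 43, 38 and 49 reads undifferentiated (6.94%), 80, 28, 59 and 74 after atRA (8.08%) and 52, 46, 57 and 62 in EB (8.03%). Relative to the mean of the other 51 bins, they averaged 2.74 and 1.91 in E14, 1.16 and 1.58 in LF2, and 0.951, 1.12 and 1.11 in XT67E1. These 4 bins were picked for their height in undifferentiated E14, so their level there is a description.

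The same 4 bins were also high for H3K4me3 in XT67E1, a mark and a line not used in picking them. They held 10, 8, 6 and 8 H3K4me3 reads undifferentiated, 6, 15, 8 and 8 after atRA, and 8, 9, 6 and 6 in EB. That is 24.6%, 22.4% and 17.5% of the HoxD reads of those libraries, or 4.16, 3.69 and 2.70 times the mean of the other bins. Across all 55 bins, H3K4me3 in undifferentiated XT67E1 correlated with H3K27me3 in undifferentiated E14 at r = 0.60 (rho = 0.32) and with H3K27me3 in the same XT67E1 cells at r = 0.037 (rho = -0.0081). The correlation with E14 includes the 4 picked bins. The 10 libraries include no H3K4me3 library of E14.

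**Figure D3:**
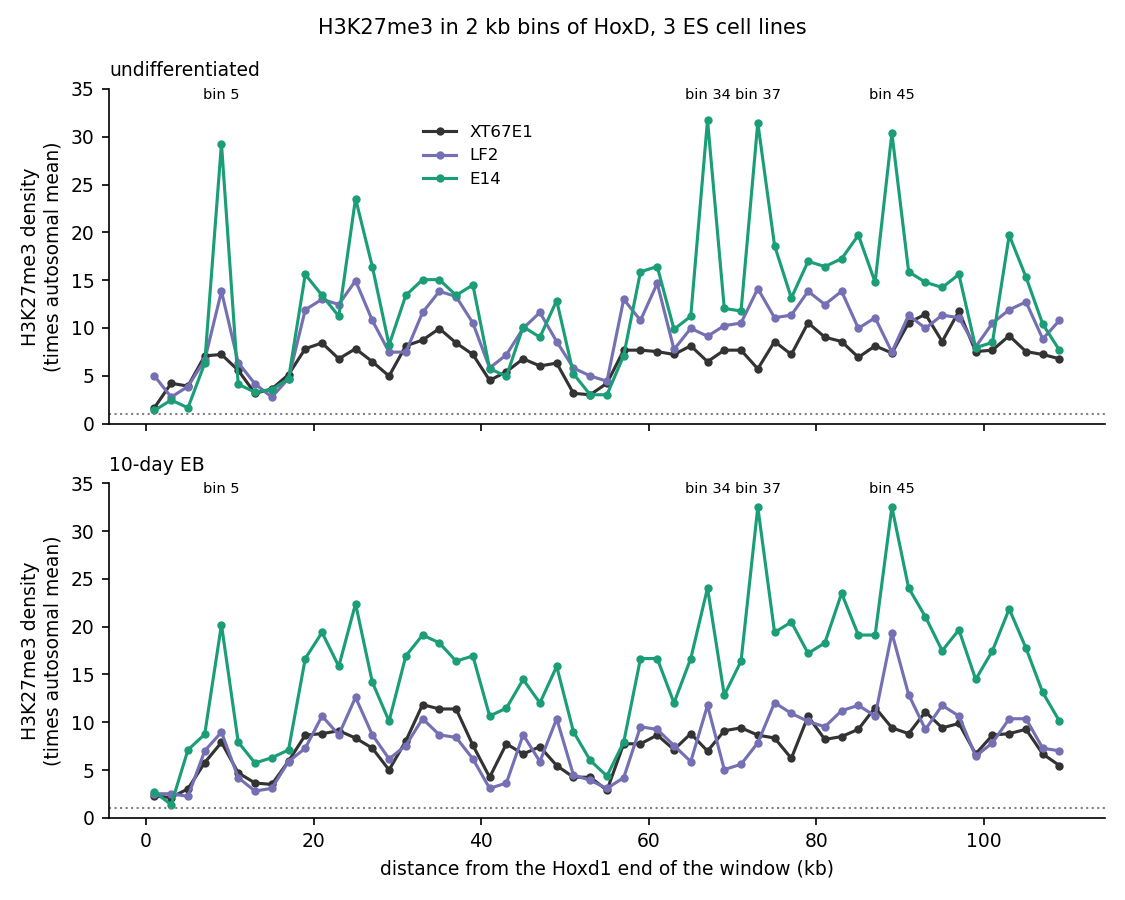
H3K27me3 density in the 55 bins of 2 kb along HoxD, from the Hoxd1 end (left), as multiples of the autosomal mean (dotted line) in undifferentiated cells (top) and 10-day embryoid bodies (bottom). Bins 5, 34, 37 and 45 rise to 29.3 to 31.8 times the mean in undifferentiated E14 and lie between 5.72 and 14.1 in the other undifferentiated lines.

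Few HoxD bins reached the level of an H3K4me3-marked bin. At 5 times the mean, 9 reads were needed in a bin. Bin 5 passed undifferentiated (10 reads), bins 34 (15 reads) and 52 (10 reads) after atRA, and bin 34 (9 reads) in EB. Those counts of 1, 2 and 1 of 55 compare with 1.45%, 1.25% and 1.35% of all autosomal bins, that is 1.82% and 3.64% of the HoxD bins, a share near the background. At 3 times the mean, 6, 8 and 7 HoxD bins passed (10.9%, 14.5% and 12.7%), beside 2.53%, 2.34% and 2.67% of all bins, so the comparison with the background depends on the threshold. Bins with no H3K4me3 read numbered 10, 7 and 5, and the median bin held 2, 3 and 2 reads. At this depth a bin without a read can still hold up to 3 reads' worth of signal, above the autosomal mean of 1.79 reads per bin undifferentiated.

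Bins marked by both modifications in XT67E1 were bin 5 undifferentiated, bin 52 after atRA and bin 34 in EB, 1 in each state, or 1.82% of HoxD bins beside 0.0441%, 0.0767% and 0.0746% of all autosomal bins. Bin 34 (chr2:74542001-74544000) had 15 H3K4me3 reads after atRA, but its H3K27me3 count of 28 reads fell short of the 34 needed there. H3K27me3 in that bin was 43 reads undifferentiated, 28 after atRA and 46 in EB, and H3K4me3 was 8, 15 and 9. Its atRA library thus had the most H3K4me3 and the least H3K27me3 of the 3, and neither difference was called by the rule given below.

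**Figure D4:**
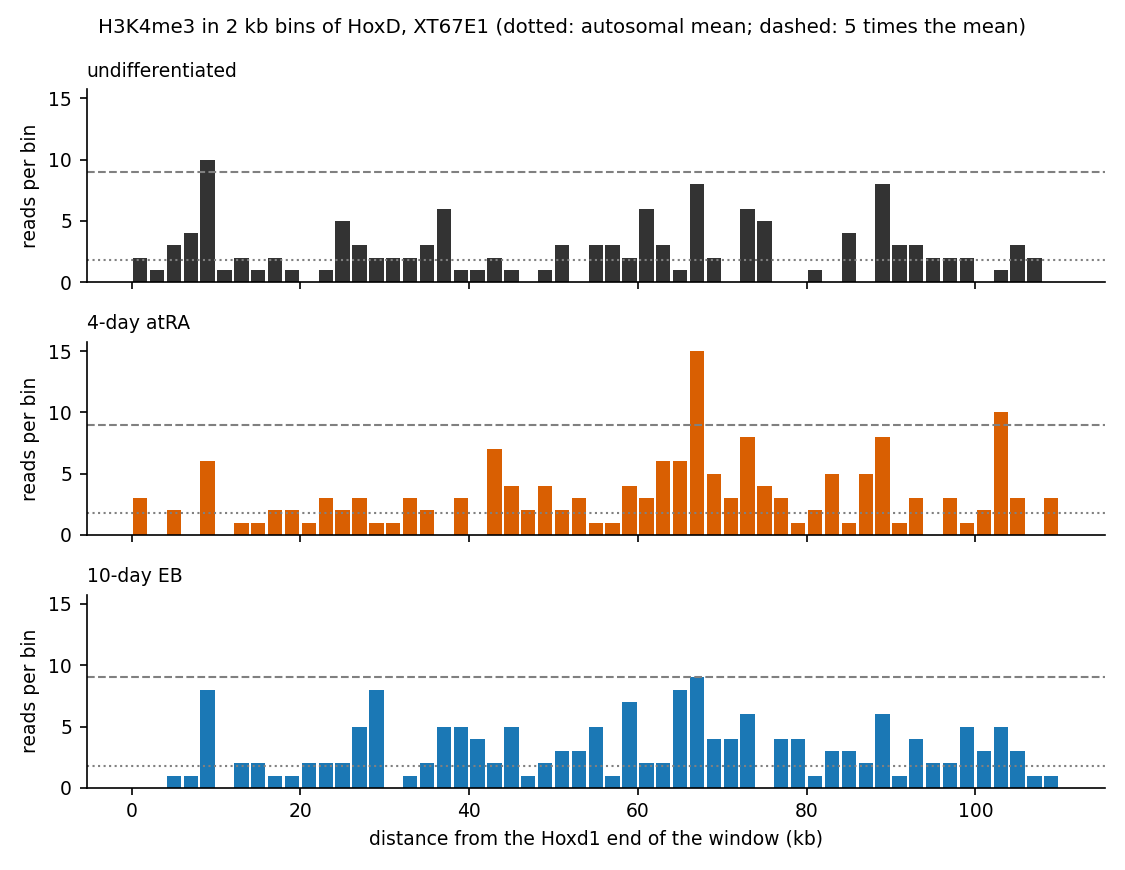
H3K4me3 reads in the 55 bins of 2 kb along HoxD in XT67E1, from the Hoxd1 end (left), with the autosomal mean (dotted) and 5 times the mean (dashed). Bin 5 (10 reads) passes the dashed line undifferentiated, bins 34 (15) and 52 (10) after atRA, and bin 34 (9) in embryoid bodies.

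Compared between states, H3K4me3 over the whole cluster was slightly higher after both differentiations, by an amount whose interval excluded 0 only under some scalings. The ratio was 1.27 for atRA over undifferentiated (165 against 130 reads, log2 ratio 0.35, interval 0.0055 to 0.69) and 1.28 for EB (166 against 130, 0.35, 0.013 to 0.70). EB and atRA gave 0.0068 (-0.31 to 0.33). Both lower bounds sit next to 0, and the median over all tested autosomal bins was -0.057, -0.33 and -0.26 in the 3 comparisons. Scaled to sparse background bins, the log2 ratios were 0.24 for atRA and 0.19 for EB, a shift larger than the distance of either lower bound from 0. Scaled to the other bins rich in H3K4me3, they were 0.45 and 0.75.

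Single positions could hardly be compared for this mark. A bin counted as tested with at least 20 reads in the 2 libraries, and as called with a 2-fold difference and an interval that excludes equality. Only 1, 0 and 1 of the 55 bins were testable and none was called, beside 17.0%, 15.7% and 7.65% of all tested bins called either way. In 10 kb windows, 2 of 10 tested were higher after atRA, beside 6.76% of all windows called. Window 5 (chr2:74560001-74570000) had 17 against 5 reads (log2 ratio 1.59, 0.27 to 3.56), and window 11, at the Hoxd13 end, had 18 against 6 (1.44, 0.19 to 3.21). None of 8 was called for EB over undifferentiated (5.70% of all) and none of 10 for EB over atRA (4.06%).

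The window richest in H3K4me3 was window 7 (chr2:74540001-74550000), with 20, 35 and 25 reads, or 2.24, 3.92 and 2.80 times the mean, equalled undifferentiated by window 1 with 20. The 50 kb nearest Hoxd1 stood at 0.965 (0.784 to 1.15), 0.707 (0.560 to 0.871) and 0.822 (0.668 to 0.988) of the density of the whole window. The atRA and EB intervals lie below 1 and the undifferentiated one spans it. Over 60 kb the EB value was 0.895 (0.757 to 1.03), so for EB this depends on the length taken. Beyond the cluster, chr2:74410001-74420000 held 43, 63 and 56 H3K4me3 reads (4.82, 7.06 and 6.27 times the mean) and chr2:74660001-74670000 held 37, 46 and 26, in each case more than the richest 10 kb of the cluster. H3K27me3 in those 2 flanking windows was at 0.392 to 1.86 times the mean.

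H3K27me3 over the cluster changed little between the states of XT67E1. The log2 ratio was 0.22 for atRA over undifferentiated (0.14 to 0.30), 0.088 for EB over undifferentiated (0.0095 to 0.17) and -0.13 for EB over atRA (-0.21 to -0.055). All 55 bins were tested in each comparison and none was called. The background was 3.66% higher and 2.13% lower for atRA, 2.15% and 4.15% for EB, and 1.68% and 5.16% for EB over atRA. Among the HoxD bins, 39 of 55 were higher after atRA by any amount, with a median log2 ratio of 0.18 and a range from -0.74 to 1.00, and 33 of 55 in EB, with a median of 0.070. The median over all tested autosomal bins was 0.075 for atRA, -0.10 for EB and -0.20 for EB over atRA.

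How these totals read depends on what else in the library is taken as the reference. Over the 9197 other bins rich in H3K27me3 (at least 5 times the mean, averaged over the 7 libraries), the median log2 ratio was 0.39 for atRA, 0.084 for EB and -0.29 for EB over atRA. Scaled to the reads in those bins, HoxD stood at -0.17 for atRA, -0.0088 for EB and 0.16 for EB over atRA. The direction of all 3 XT67E1 comparisons thus turned with that scaling, which was added after seeing the data. The share of autosomal reads in those bins was 4.61% undifferentiated, 6.04% after atRA and 4.93% in EB.

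The other 2 lines moved in opposite directions in EB. In LF2 the log2 ratio over the cluster was -0.30 (-0.40 to -0.20), and 1 bin was called higher and 1 lower of 54 tested, beside 1.98% and 12.5% of all bins. On simulated data for this comparison, counting error alone led the rule to call 2.97% of unchanged bins. Bin 45 went from 27 to 69 reads (log2 ratio 1.34) and bin 29 from 47 to 15 (-1.57). The median of all tested bins was -0.33 and that of other H3K27me3-rich bins -0.38, and scaled to the latter HoxD stood at 0.073. The decrease over LF2 HoxD was thus no larger than that of the median tested bin.

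In E14 the log2 ratio was 0.27 (0.20 to 0.35), and 3 of 53 tested bins were called higher and 0 lower, beside 9.11% and 6.07% of all bins. On simulated data for this comparison the rule called 2.70% of unchanged bins. Bin 3 held 6 reads undifferentiated and 26 in EB (1.94), bin 22 held 18 and 42 (1.18) and bin 51 held 31 and 64 (1.02). None of the 3 is one of the sharp maxima of undifferentiated E14: they are at the Hoxd1 edge, in the middle and near the Hoxd13 end. The median of all tested bins was 0.16 and that of other rich bins 0.24, and the ratio stayed above 0 under each scaling (0.10 to 0.38). No 10 kb window of the cluster was called in any of the 5 H3K27me3 comparisons of states, beside 2.92% (atRA), 3.03% (EB) and 5.81% (EB over atRA) of all windows in XT67E1, 6.45% in LF2 and 4.98% in E14. Those shares too are not matched for reads.

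**Figure D5:**
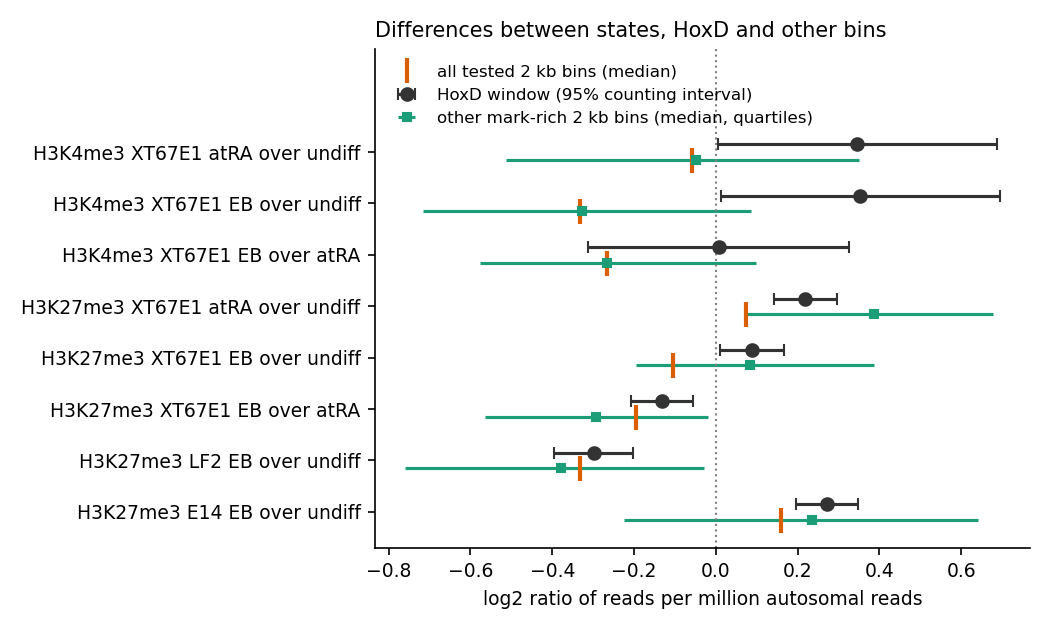
Log2 ratio between states for the whole HoxD window (black, 95% counting interval), the median of all tested 2 kb bins (orange) and the median and quartiles of the other bins rich in the same mark (green). The HoxD value for H3K27me3 runs from -0.30 in LF2 embryoid bodies to 0.27 in E14, and lies inside the quartiles of the other rich bins in each of the 5 H3K27me3 comparisons.

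The 3 lines together gave the only test with replicates, since each line supplied 1 undifferentiated and 1 EB library. Over the cluster the mean log2 ratio was 0.021 ± 0.29 (SD, n = 3 lines), higher in 2 of 3 lines (two-sided exact sign-flip permutation test p = 1, where 3 lines can give no less than 0.25). It was -0.013 without XT67E1, 0.18 without LF2 and -0.11 without E14. With limma, which called 88 of 413246 bins higher and 12 lower genome-wide (0.0242%) after Benjamini-Hochberg adjustment over all bins, no HoxD bin of 55 was called in either direction. None had an unadjusted p under 0.05, beside 7.03% of all bins. On simulated data the same fit recovered 98% of 4-fold rises but 24% of 4-fold falls. Falls of that size were thus mostly missed there. The changed bins were drawn genome-wide and not matched to HoxD, whose median bin held 28 to 61 reads in these libraries. Recovery of falls at HoxD read counts was not simulated, so no conclusion is drawn from the absence of called falls in HoxD. The median HoxD change was 0.043, with 33 bins positive and 22 negative, beside -0.023 over all bins.

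Bin 45 had the highest change of the 55, 0.60 ± 0.31 (SE) on the log2 scale with a limma adjusted p of 0.73. It was positive in all 3 lines: LF2 gave 1.35, XT67E1 0.34 and E14 0.097, so LF2 supplied most of it. Bin 2, at the Hoxd1 edge, had the lowest, -0.60 ± 0.38 (SE) with a limma adjusted p of 0.78, and was negative in all 3 lines: XT67E1 gave -0.92, LF2 -0.12 and E14 -0.76. Under the fit without the line as a block, limma called 52 bins higher and 5 lower genome-wide, and again none in HoxD.

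Between lines, E14 carried the most H3K27me3 on HoxD in both states. Undifferentiated, E14 stood 1.80 times above XT67E1 (log2 ratio 0.85, 0.77 to 0.93) and 1.30 times above LF2 (0.38, 0.30 to 0.47), and LF2 1.38 times above XT67E1 (0.47, 0.38 to 0.55). In EB, E14 stood 2.05 times above XT67E1 (1.03, 0.96 to 1.11) and 1.94 times above LF2 (0.95, 0.86 to 1.04). LF2 and XT67E1 did not differ beyond counting error in EB (1.06 times, 0.080, -0.011 to 0.17). No replicate of any line was available for these comparisons, so line and library cannot be told apart, and fewer cells carrying the mark cannot be told apart from less mark per cell.

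By bins, E14 over XT67E1 gave 13 higher and 0 lower of 54 undifferentiated (background 5.93% and 9.40%) and 22 and 0 of 54 in EB (8.19% and 3.75%). E14 over LF2 gave 4 and 1 of 54 undifferentiated (3.15% and 15.9%) and 18 and 0 of 53 in EB (9.34% and 3.61%). LF2 over XT67E1 gave 2 and 0 of 55 (7.01% and 1.94%), then 1 and 1 of 55 (3.57% and 1.85%). The order of the 2 states in E14 over XT67E1 depended on the scaling, with 20 bins higher in each under median-of-ratios scaling. At the top of the undifferentiated list stood bins 37, 34, 45 and 5, with log2 ratios of 2.42, 2.26, 2.01 and 1.99. These are the 4 bins picked for their height in undifferentiated E14, so their place follows largely from that choice. Against LF2 the only bin lower in undifferentiated E14 was bin 1, with 5 against 18 reads.

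Most of these differences became smaller or turned when scaled to the reads in H3K27me3-rich bins. The share of autosomal reads in those bins was 7.49% and 8.43% in E14, 7.12% and 5.50% in LF2, and 4.61% to 6.04% in XT67E1. The bins were chosen on the average of the same 7 libraries, so bins high mainly in E14 can be among them. Part of the shift under this scaling may follow from that choice, which was not tested. Scaled to those bins, E14 over XT67E1 became 0.15 undifferentiated, with 4 bins higher and 4 lower, and 0.26 in EB, with 2 higher and 0 lower. E14 over LF2 became 0.34 in EB, with 2 higher, and LF2 over XT67E1 turned to -0.16 undifferentiated and -0.080 in EB. Undifferentiated E14 over LF2 stayed at 0.31 with 3 bins higher and 1 lower. Under scaling to sparse background bins it was 0.055, with 2 bins higher and 3 lower.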

How the data were processed

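Chromatin was fixed with 1% formaldehyde, sonicated, immunoprecipitated and sequenced on Illumina Genome Analyzers, per the labels' protocols. The authors deposited 1 list of mapped intervals per library, with position only; the build is mm9, per the submitters' processing notes, and the sources used here give no aligner, filter or read extension. All intervals are 200 bp, none is repeated, and libraries were deposited at equal size: 2252395 intervals (H3K4me3), 8380007 (H3K27me3, XT67E1) and 4531733 (H3K27me3, LF2 and E14). Any thinning to equal size removes differences in depth, and depth limits H3K4me3 most.

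Midpoints were counted in 2 kb bins (Python 3.11.15, numpy 2.4.6, pandas 2.3.3, scipy 1.17.1) and scaled to autosomal reads. Log2 ratios of bins and 10 kb windows used a pseudocount of 1 read, and those of the whole window used none. All had exact conditional binomial 95% intervals. A call needed 20 reads in the 2 libraries, a 2-fold difference and an interval excluding equality. Floors for a count of 0 are 3 reads. limma 3.58.1 (R 4.3.3, trend) fitted EB against undifferentiated H3K27me3 with the cell line as block, on bins with at least 30 reads over 6 libraries, two-sided, with a threshold of 0.05. The line pairs its 2 libraries; across bins their deviations correlated at 0.15 (XT67E1), 0.042 (LF2) and 0.15 (E14). Both scripts were tested on simulated data, where the limma fit recovered 98% of 4-fold rises and 24% of 4-fold falls. For the comparisons with undifferentiated cells, the calling rule recovered 95.5% to 100% of 4-fold changes. It also called 1.56% to 2.97% of the unchanged bins. Neither simulation was matched to the read counts of HoxD bins. Bins named are the 5 with most reads per library and the called bins, up to 10 per direction, plus bins singled out after their values were seen (1, 2, 7, 8, 27, 28). Members, lists and tests were chosen with earlier results of these data known. Lists of other Hox genes, retinoic acid targets and cell state markers were not used, for want of an mm9 annotation. Alternatives covered scaling, read minimum, pseudocount, bin placement, thresholds and leaving out each line.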

Additional observations from a re-analysis of the deposited data

Results flagged for a closer look

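The change of HoxD H3K27me3 from undifferentiated cells to 10-day EB differed in direction between lines. LF2 had a log2 ratio of -0.30, XT67E1 0.088 and E14 0.27, so LF2 minus XT67E1 came to -0.387 and LF2 minus E14 to -0.571. Each line has 1 library per state, and the difference between lines was not tested. The direction in LF2 depended on the scaling: under median-of-ratios scaling the 3 lines gave 0.033 (LF2), 0.19 (XT67E1) and 0.11 (E14), and under mark-rich bin scaling, added after seeing the data, LF2 gave 0.073, XT67E1 -0.0088 and E14 0.10. The medians over other H3K27me3-rich bins were ordered the same way, at -0.38, 0.084 and 0.24.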

How the results depend on the processing

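Scaling was the choice that moved the most values, and the cause was not tested. All values here are HoxD log2 ratios of H3K27me3, or counts of its 55 bins, unless stated. Under background scaling (sparse 10 kb bins), XT67E1 EB over undifferentiated turned to -0.020 and the mean over 3 lines to -0.058. The other totals moved to 0.35 (XT67E1 atRA), -0.37 (XT67E1 EB over atRA), -0.53 (LF2 EB), 0.38 (E14 EB), and, undifferentiated, 0.69 (E14 over XT67E1), 0.055 (E14 over LF2) and 0.64 (LF2 over XT67E1). Bin counts became 1 higher for XT67E1 atRA, 1 lower for XT67E1 EB over atRA, 1 lower for XT67E1 EB over undifferentiated and 7 lower for LF2 EB. Undifferentiated they became 7 higher and 1 lower (E14 over XT67E1), 2 higher and 3 lower (E14 over LF2) and 8 higher (LF2 over XT67E1).

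Under median-of-ratios scaling, LF2 EB turned to 0.033 and XT67E1 EB over atRA to 0.065. The moved totals were 0.19 (XT67E1 EB over undifferentiated), 0.11 (E14 EB), 0.78 (EB, E14 over LF2) and, undifferentiated, 1.10 (E14 over XT67E1), 0.74 (E14 over LF2) and 0.30 (LF2 over XT67E1). Bins higher became 8 (EB, E14 over LF2), 0 (EB, LF2 over XT67E1), 2 (XT67E1 EB over atRA), 9 (undifferentiated E14 over LF2) and 20 (undifferentiated E14 over XT67E1).

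Under mark-rich bin scaling, added after seeing the data, 6 totals turned: -0.17 (XT67E1 atRA), -0.0088 (XT67E1 EB over undifferentiated), 0.16 (XT67E1 EB over atRA), 0.073 (LF2 EB), and LF2 over XT67E1 at -0.16 undifferentiated and -0.080 in EB, where the main interval already spanned 0. Others moved to 0.10 (E14 EB), 0.15 (undifferentiated E14 over XT67E1), and, in EB, 0.26 (E14 over XT67E1) and 0.34 (E14 over LF2). For H3K4me3, EB over undifferentiated moved to 0.75. Bin counts became 2 higher in EB for E14 over LF2 and for E14 over XT67E1, 0 higher and 2 lower for LF2 over XT67E1 in EB, 2 higher for XT67E1 EB over atRA, 1 lower for XT67E1 EB over undifferentiated and 2 lower for XT67E1 atRA. Undifferentiated they became 4 higher and 4 lower (E14 over XT67E1) and 0 higher and 1 lower (LF2 over XT67E1).

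With bins shifted by 1 kb, LF2 EB gave 0 higher and 4 lower, each XT67E1 comparison of states 1 higher, undifferentiated E14 over XT67E1 1 lower, and EB LF2 over XT67E1 0 lower. With no read minimum, H3K4me3 gave 1 bin higher in each comparison and 1 lower for atRA over undifferentiated. A pseudocount of 5 reads left 0 higher and 0 lower for EB LF2 over XT67E1. A threshold of 3 times the mean marked 6, 8 and 7 bins for H3K4me3 (undifferentiated, atRA, EB), all also marked by H3K27me3 (6, 8 and 7), beside 2.53%, 2.34% and 2.67% of all bins for H3K4me3 and 0.263%, 0.336% and 0.336% for both. H3K27me3 alone marked 54, 51 and 52 HoxD bins at that threshold, so the count for both repeats that for H3K4me3. At 10 times, 0 bins were marked by H3K4me3 or both, and 4, 18 and 6 by H3K27me3. Over 60 kb in place of 50 kb, the relative density of the Hoxd1 end was 0.840 (XT67E1 atRA), 0.774 (undifferentiated E14) and 0.790 (E14 EB). Assigning reads by interval start turned no total.

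Leaving out 1 line put the mean over 3 lines between -0.11 (without E14) and 0.18 (without LF2). The median HoxD change in limma, 0.043 with all lines and the same without the replicate block, was -0.13 without E14, 0.21 without LF2 and -0.034 under background scaling. limma called 0 HoxD bins under every alternative run, while genome-wide calls higher and lower went from 88 and 12 to 52 and 5 without the replicate block, 97 and 44 under background scaling, 287 and 130 under median-of-ratios scaling, 327 and 187 under mark-rich scaling, 179 and 69 in 10 kb bins, and 0 and 0 without XT67E1, without E14 or with no read minimum. For called single bins and windows, 191 values under alternatives kept their call, 85 lost it (50 of them under mark-rich scaling) and 0 turned. Depth limits H3K4me3 most.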
